A study of Sus scrofa with 6 samples.

Results

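The genes described here are the antioxidant enzymes, selenoproteins and NADPH oxidase subunits measured in left atrial tissue of 6 male pigs of the Lanyu miniature breed, with 1 Affymetrix array per animal. A gene belonged to the set if its symbol in the array annotation began with GPX, PRDX, SELENO, MSR, TXN, SOD, GST, GLRX, GCL, NCF or CYB5, or was CAT, GSR, NQO1, HMOX1, HMOX2, CYBA, CYBB, AKR1CL1 or OXNAD1. This gave 66 genes with 97 probe sets, out of 6765 genes and 23999 probe sets, and each gene was read from its probe set with the highest mean. The set was chosen by name and not by value, but with earlier results of these data known. MRV animals had mitral regurgitation and were given valsartan, which blocks angiotensin II at its type I receptor, daily at 3.43 mg/kg/day, beginning 1 week ahead of the operation. MR animals had the same lesion, a hole of 2.8 mm through the posterior leaflet of the mitral valve, without valsartan. Both were killed 12 months after surgery. NC animals were normal controls with no operation recorded, so the lesion and its surgery cannot be told apart in comparisons with NC. All animals were 18 months old, and each group held 2 animals.

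Reactive oxygen species arise in heart muscle from mitochondria and from NADPH oxidases, membrane enzymes that pass electrons from NADPH to oxygen. Superoxide dismutases turn superoxide into hydrogen peroxide, which catalase, glutathione peroxidases and peroxiredoxins remove. Thioredoxin and glutathione, kept reduced by NADPH, recharge these enzymes, and methionine sulfoxide reductases repair oxidized protein. Selenoproteins carry the amino acid selenocysteine, and many of them are redox enzymes. Angiotensin II is known to activate NADPH oxidase in cardiovascular cells.

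Values are probe set intensities on a linear scale as deposited. Differences are of group means of log2(intensity + 16), which understates changes of dim probe sets, and each is the first group named minus the second. The array medians lay between 90.2 and 93.4. The tissue label was set against 4 atrial and cardiac muscle markers with a probe set (MYL4, NPPA, TNNT2 and ACTC1), which read from 15851 to 21842 on all 6 arrays. Both NC arrays stood further from each other (r = 0.958 across probe sets) than the MR arrays (r = 0.980) and the MRV arrays (r = 0.981). Over the redox genes the median gap between the 2 arrays of a group was 0.097 on the log2 scale in MRV, 0.12 in MR and 0.15 in NC, against 0.12, 0.13 and 0.17 over all genes tested. The ratio of the 3' to the 5' actin control, a measure of RNA integrity and priming, was 2.30 and 1.87 in MRV, 1.44 and 1.70 in MR, and 1.61 and 1.91 in NC. It was higher in MRV than in MR without overlap. In bulk tissue, fewer cells of a type and less RNA per cell cannot be told apart.

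Of the 66 genes, 60 had a mean at or above the 40th percentile of all probe sets, an intensity of 61.4, and were tested. GPX5, GPX6, GSTM3, SELENOI, NCF4 and CYB5B lay below it, with values from 20.6 to 67.9 on single arrays, and no difference is given for them. CYBB, the catalytic subunit of the phagocyte NADPH oxidase, had no probe set that carried 1 symbol alone. Differences were fitted with limma across all 14400 probe sets that passed the filter, and p-values were adjusted over all of them.

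No redox gene passed an adjusted p of 0.05 in limma in any comparison, so all differences below are given as values. The count was 0 of 60 for MRV minus MR, where 0 percent of all 5408 genes tested passed, 0 of 60 for MR minus NC, where 0.0185 percent passed (0.00694 percent of all probe sets), and 0 of 60 for MRV minus NC, where 0 percent passed. At an unadjusted limma p of 0.05 the counts were 13, 9 and 11 of 60 in the same order, against 7.88, 4.49 and 5.62 percent of all genes. A gene is called apart below when its arrays do not overlap between the groups and the log2 difference is at least 0.5 in size, which carries no test. With 2 arrays against 2, an exact permutation test cannot go below p = 0.333. The comparisons share arrays, MR arrays in MRV minus MR and MR minus NC, MRV arrays in both MRV comparisons and NC arrays in both comparisons with NC, so their differences are not independent.

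**Figure D1:**
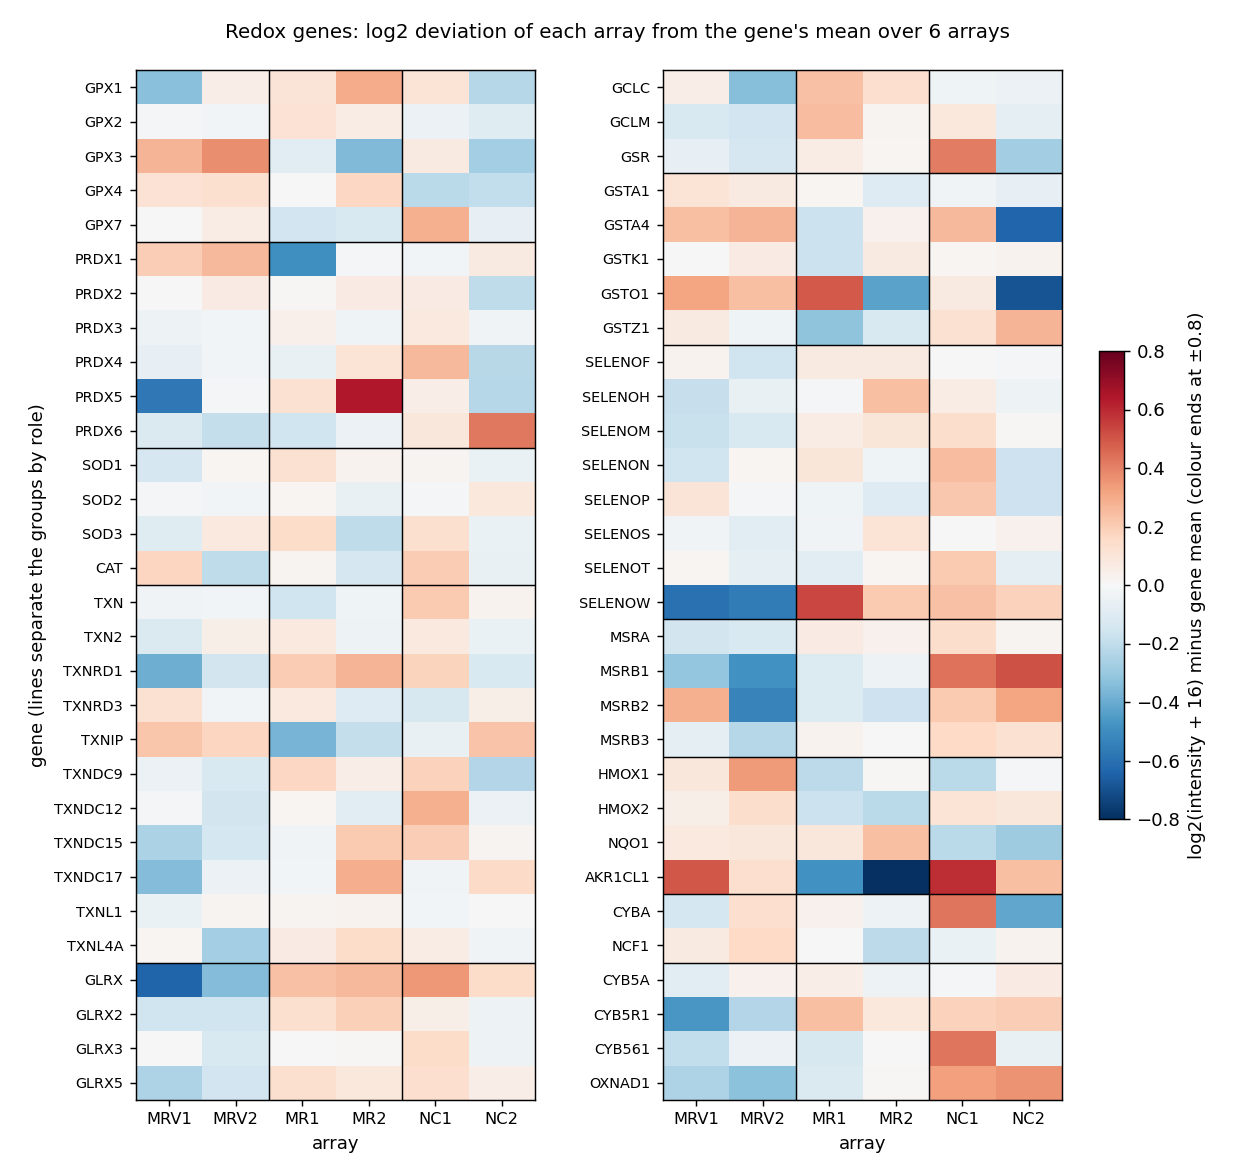
Log2 deviation of each array (columns, MRV, MR and NC with 2 arrays each) from the mean of the gene over the 6 arrays, for the 60 redox genes tested (rows, black lines between groups by role). Blue MRV columns stand beside paler MR and NC columns for SELENOW, GLRX, CYB5R1 and TXNRD1, and AKR1CL1 is blue in MR alone, where MR2 lies beyond the end of the colour scale.

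The comparison of MRV with MR asks what valsartan alters in animals with the lesion. The largest differences were lower values in MRV for SELENOW and GLRX and a higher value for AKR1CL1. Of the 60 genes, 5 were apart and lower in MRV, against 3.11 percent of all genes: SELENOW, GLRX, CYB5R1, TXNRD1 and PRDX5. Another 2, AKR1CL1 and GPX3, were apart and higher, against 1.63 percent of all genes. In all, 38 of 60 genes were lower in MRV, with a median log2 difference of -0.057, against 57.6 percent of all genes and a median of -0.031. With a quantile normalization on top, 32 of 60 were lower and 3 were apart in each direction. With the actin ratio added as covariate, 30 of 60 were lower, and of the 7 genes apart 3 remained, among 2 lower and 3 higher. The sign turned for 16 of 60 genes, 12 of them lower in MRV without the covariate. In every count of genes apart with this covariate, overlap was read from the unadjusted arrays and only the difference was adjusted.

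The comparison of MR with NC asks how regurgitation, together with its surgery, alters these genes. AKR1CL1 and MSRB1 were lower in MR and were the only redox genes apart among the 60 in that direction, against 1.26 percent of all genes. None was apart and higher, against 1.11 percent. The signs were even, with 31 of 60 lower in MR, against 47.4 percent of all genes, and a median of -0.0091, against 0.0076. These figures rest on single arrays. Without NC1, 20 of 60 were lower, the median was 0.045 and 7 genes were apart, while without NC2, 40 of 60 were lower, the median was -0.069 and 2 were apart. Without MR1 the median was -0.045 and 3 were apart, and without MR2 it was 0.0021 and 5 were apart. With the actin ratio added as covariate, 38 of 60 were lower, the median was -0.051 and 1 gene was apart.

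The comparison of MRV with NC sets treated animals with the lesion against controls. Here 5 genes were apart and lower in MRV, against 2.40 percent of all genes: MSRB1, OXNAD1, SELENOW, GLRX and CYB5R1. GSTO1 was apart and higher, against 0.703 percent. Of the 60 genes, 45 were lower in MRV, with a median of -0.084, against 55.8 percent of all genes and a median of -0.023. Without NC1, 33 of 60 were lower, the median was -0.018 and 9 were apart. Without NC2, 46 were lower, the median was -0.20 and 7 were apart. With the actin ratio added as covariate, 33 of 60 were lower, the median was -0.041 and 7 were apart.

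**Figure D2:**
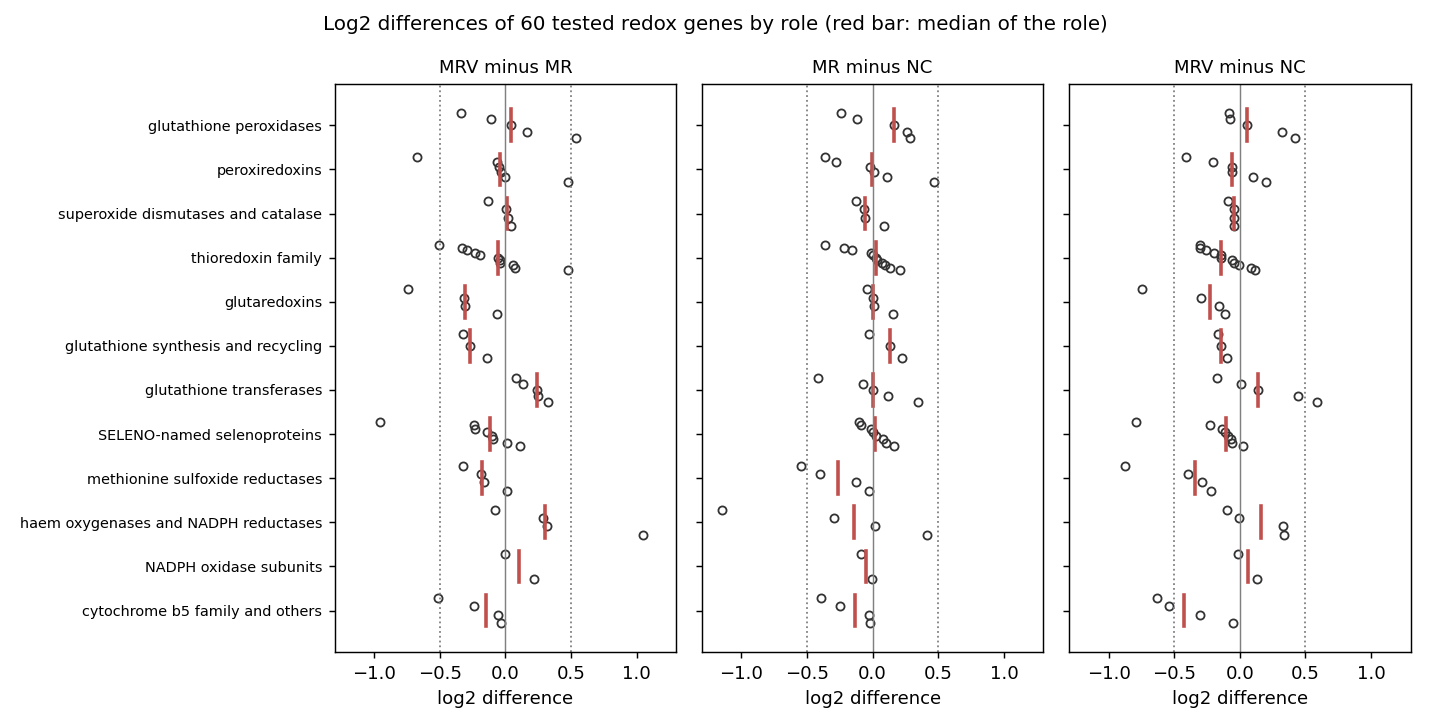
Log2 difference (horizontal axis) of each of the 60 redox genes tested (open circles) by role (rows), for MRV minus MR, MR minus NC and MRV minus NC, with the median of each role as a red bar and dotted lines at -0.5 and 0.5. All 4 glutaredoxins lie below 0 in MRV minus MR and in MRV minus NC, against 57.6 and 55.8 percent of all genes tested. All 5 glutathione transferases lie above 0 in MRV minus MR, against 2292 of all 5408 genes.

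Among selenoproteins, SELENOW differed most between MRV and MR, and MSRB1, described with its family, differed most in both comparisons with NC. It encodes a small selenoprotein that is abundant in muscle. SELENOW read 972 and 999.9 in MRV, 2149.7 and 1718.5 in MR, and 1744 and 1684 in NC. Both MRV arrays lay below the other 4 arrays, while MR and NC overlapped. The MRV mean was 986 ± 19.7, against 1934 ± 305 in MR and 1714 ± 42.6 in NC (SD, n = 2 each). SELENOW in MRV was 0.517-fold that in MR (log2 difference -0.95 with an SE of 0.14, limma adjusted p = 0.317) and 0.579-fold that in NC (log2 difference -0.79 with an SE of 0.14, limma adjusted p = 0.718), on the log2(intensity + 16) scale that all folds here use. With the actin ratio added as covariate these became -0.76 and -0.67.

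The other 7 SELENO genes tested differed less, with differences of MRV from MR between -0.24 and 0.11. SELENOH, a nucleolar selenoprotein gene, read 389 and 426 in MRV, 440.1 and 528 in MR, and 464 and 433 in NC. SELENOM, which encodes a selenoprotein of the endoplasmic reticulum, read 143.5 and 149.9 in MRV, 173 and 177 in MR, and 183 and 166 in NC. In both genes the MRV arrays lay below the other 4, and MRV minus MR was -0.24 for SELENOH and -0.23 for SELENOM. The same held for SELENOS, a factor in the removal of misfolded proteins from the endoplasmic reticulum, with a difference of -0.10. A dimmer SELENOH probe set differed by 0.069 between MRV and MR and by 0.0038 between MRV and NC, with overlap in both. SELENOP, the secreted protein that carries selenium in plasma, read 3627 and 3328 in MRV, 3294 and 3141 in MR, and 3907.5 and 2998.5 in NC, with MRV just above MR by 0.11 and NC overlapping both. SELENOF, SELENON and SELENOT, also proteins of the endoplasmic reticulum, differed between MRV and MR by -0.14, -0.10 and 0.011. Counting the selenocysteine enzymes of other families, 15 selenoproteins were tested. Of these, 10 were lower in MRV than in MR and 9 without overlap, while 28 of the 45 other redox genes were lower and 17 without overlap. Over all genes tested, 28.7 percent were lower in MRV without overlap.

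Of the methionine sulfoxide reductases, MSRB1 and MSRB3 had lower values in both groups with the lesion than in NC, without overlap, and MSRA and MSRB2 overlapped NC in 1 of the groups. MSRB1, the selenoprotein of the family, reduces the R form of oxidized methionine. MSRB1 read 735 and 651 in MRV, 848 and 890.1 in MR, and 1245 and 1312 in NC. The 3 groups did not overlap, in the order MRV, MR and NC from low to high. The mean was 693 ± 59.6 in MRV, 869 ± 29.9 in MR and 1278 ± 47.7 in NC (SD, n = 2 each). MSRB1 in MR was 0.684-fold that in NC (log2 difference -0.55 with an SE of 0.11, limma adjusted p = 0.999955), and in MRV it was 0.547-fold that in NC (log2 difference -0.87 with an SE of 0.11, limma adjusted p = 0.704). Between MRV and MR it differed by -0.32. Over the alternatives tried, the difference of MRV from NC stayed between -0.97 and -0.78, with adjusted p-values of 0.139 or more.

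MSRB3, whose protein works in the endoplasmic reticulum and mitochondria, read 2808 and 2516 in MRV, 3006 and 2945.5 in MR, and 3298 and 3208 in NC. It showed the same order of groups without overlap, with smaller differences of -0.16 for MRV minus MR and -0.13 for MR minus NC. MSRA, which reduces the S form of oxidized methionine, read 255 and 259 in MRV, 298 and 292 in MR, and 315 and 288 in NC, with MRV below the other 4 arrays. Another MSRA probe set differed by 0.091 between MRV and MR. The mitochondrial MSRB2 read 299 and 163 in MRV, 224 and 215 in MR, and 284 and 307 in NC, and its MRV arrays lay on both sides of MR. All 4 genes were lower in MRV than in NC, with a median of -0.34, against 55.8 percent of all genes, and all 4 were lower in MR than in NC, with a median of -0.26, against 47.4 percent. For MSRA the difference of MR from NC was -0.029, and 0.031 without NC1.

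The glutaredoxins, small proteins that use glutathione to reduce mixed disulfides or carry iron-sulfur clusters, were lower in MRV in every case. Over all genes tested, 57.6 percent were lower in MRV than in MR and 55.8 percent lower in MRV than in NC. All 4 glutaredoxins were lower than in MR without overlap, against 28.7 percent of all genes. Below NC without overlap were 3 of the 4, against 21.8 percent. GLRX, the cytosolic glutaredoxin, read 128 and 160.4 in MRV, 248 and 253 in MR, and 269.8 and 232 in NC. Both MRV arrays lay below the other 4, and MR and NC overlapped. The mean was 144 ± 23.0 in MRV, 251 ± 3.32 in MR and 251 ± 26.6 in NC (SD, n = 2 each). GLRX in MRV was 0.598-fold that in MR (log2 difference -0.74 with an SE of 0.14, limma adjusted p = 0.437). A dimmer GLRX probe set differed in the same direction by -0.49 between MRV and MR and by -0.17 between MRV and NC, and by 0.32 between MR and NC, where the brighter one differed by 0.0011. GLRX differed by -0.49 between MRV and MR with the actin ratio added as covariate.

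GLRX2, a mitochondrial glutaredoxin, read 522 and 523 in MRV, 641 and 669.6 in MR, and 604 and 567 in NC. GLRX5, which works in mitochondrial iron-sulfur cluster assembly, read 1092 and 1168 in MRV, 1419 and 1378 in MR, and 1430.2 and 1347 in NC. In both, the MRV arrays lay below the other 4, with differences from MR of -0.32 and -0.30. GLRX3, a cytosolic iron-sulfur protein gene, differed by -0.066, and its MRV arrays did not overlap MR but did overlap NC. GLRX5 also serves haem synthesis in red cell precursors. Of 5 erythroid markers, 3 had a probe set and 2 were tested, and their summed intensity was 359 to 380.4 in MRV, 437 to 448 in MR and 440.1 to 469 in NC. ALAS2, the erythroid enzyme of haem synthesis, read 59.3 and 81.9 in MRV, 82.3 and 135 in MR, and 70.8 and 214 in NC. HBB, the other tested erythroid marker, read 295 and 251 in MRV, 328 and 273 in MR, and 345 and 205 in NC. Its groups overlapped in every comparison. The part of red cell RNA in the glutaredoxin differences was not tested.

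**Figure D3:**
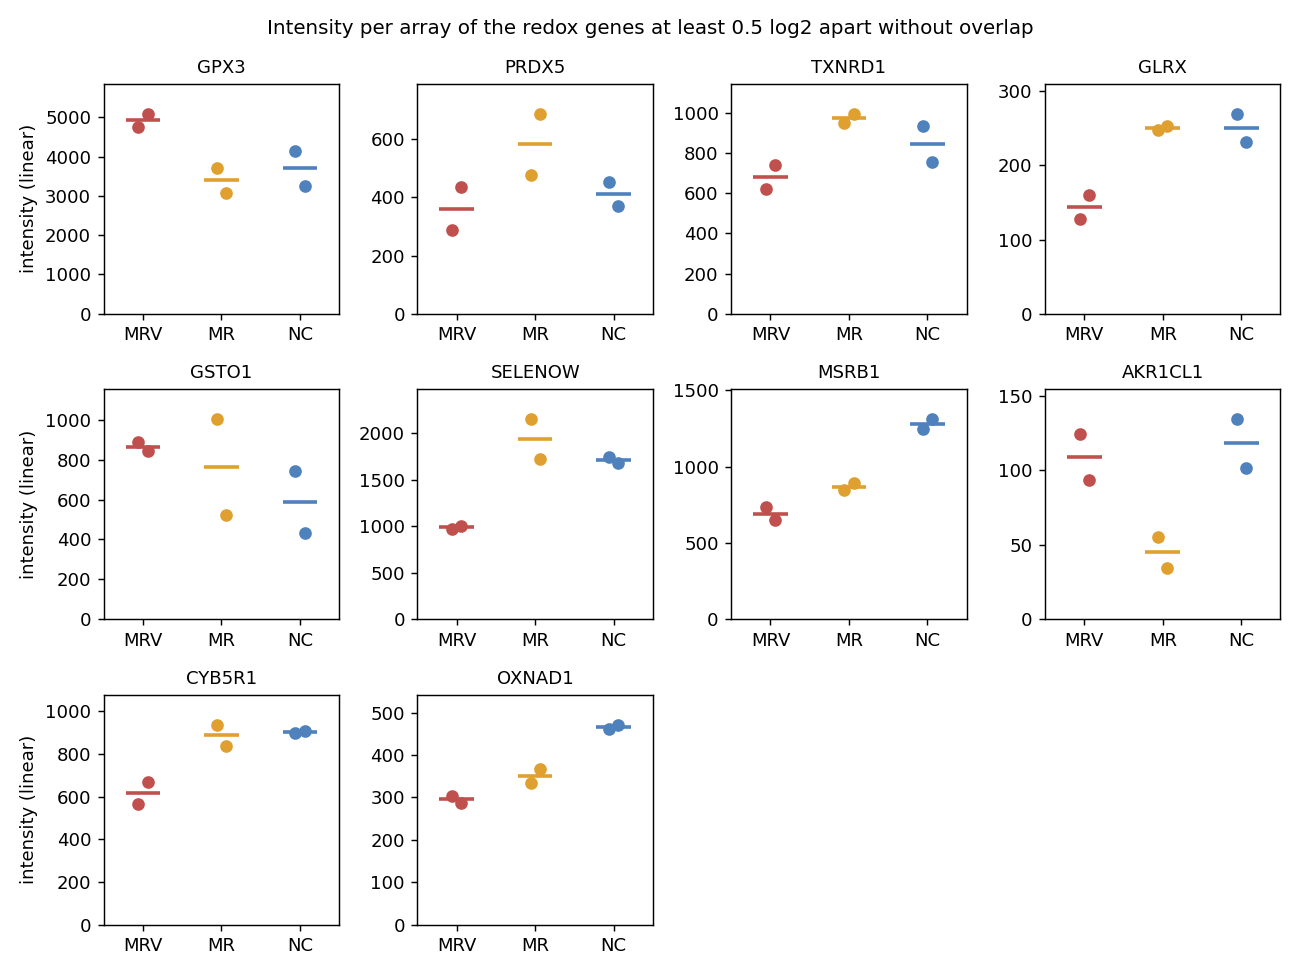
Intensity (vertical axis, linear, from 0) on each array (points) and group mean (bars) in MRV, MR and NC for the 10 redox genes that were apart in at least 1 comparison. MRV lies below MR and NC for SELENOW, GLRX, TXNRD1, CYB5R1, MSRB1 and OXNAD1, and AKR1CL1 is low in MR alone.

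In the thioredoxin system, the reductase and the inhibitor of thioredoxin differed in opposite directions between MRV and MR. TXNRD1, the cytosolic selenoenzyme that reduces thioredoxin, read 624 and 742 in MRV, 951 and 998 in MR, and 935 and 757 in NC. MRV lay below NC and NC below MR, without overlap (MRV minus MR: log2 difference -0.51 with an SE of 0.15, limma adjusted p = 0.596). A second TXNRD1 probe set differed by -0.32 between MRV and MR, while the dimmest differed by 0.15, so the probe sets of the gene disagree. TXNRD1 differed by -0.25 with the actin ratio added as covariate. TXNIP, which binds and inhibits thioredoxin and responds to glucose, read 10668 and 10292 in MRV, 7043 and 8001 in MR, and 8740.2 and 10674.5 in NC. MR lay below the other 4 arrays, with a log2 difference of -0.36 for MR minus NC and of 0.48 for MRV minus MR.

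TXN, thioredoxin itself, read 2211.5 and 2214 in MRV, 2015 and 2198 in MR, and 2609 and 2299 in NC. Both NC arrays lay above the other 4, and MR differed from NC by -0.22 and MRV from MR by 0.072. A dimmer TXN probe set gave -0.50 and 0.48. The mitochondrial TXN2 read 614.5 and 689 in MRV, 705 and 649 in MR, and 705 and 643 in NC, with overlap between all groups. Among the thioredoxin domain genes, TXNDC15 and TXNDC17 were lower in MRV than on the other 4 arrays, with MRV minus MR at -0.29 and -0.33, although another TXNDC15 probe set differed by -0.016. TXNDC9, TXNDC12, TXNL1, TXNL4A and TXNRD3 differed by -0.20, -0.042, -0.039, -0.23 and 0.061. TXNL4A encodes a spliceosome protein and belongs to the set by its symbol alone.

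Of the peroxiredoxins, which reduce peroxides with a reactive cysteine, PRDX5 and PRDX1 differed most between MRV and MR, and PRDX6 differed most between MRV and NC. PRDX5, found in mitochondria, peroxisomes and cytosol, read 288 and 434 in MRV, 477 and 688 in MR, and 453 and 370.1 in NC. MR lay above the other 4 arrays, but the arrays of a group stood far apart in both MRV and MR (MRV minus MR: log2 difference -0.67 with an SE of 0.26, limma adjusted p = 0.668). Without 1 of the MRV or MR arrays the difference ranged from -0.96 to -0.39, and it was -0.45 with the actin ratio added as covariate. PRDX1, a cytosolic peroxiredoxin, read 1592 and 1660.2 in MRV, 983.5 and 1370.3 in MR, and 1367 and 1455 in NC, with MRV above the other 4 arrays and MR1 lowest (0.48 for MRV minus MR). PRDX6, which also has phospholipase activity, read 4094 and 3887 in MRV, 3965 and 4282 in MR, and 4723 and 5945 in NC, and NC lay above the other groups, with log2 differences of -0.41 for MRV minus NC and -0.36 for MR minus NC.

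The remaining peroxiredoxins differed by at most 0.11 in size in any comparison. PRDX2, abundant in cytosol and in red cells, read 2595.5 and 2716 in MRV, 2613 and 2724 in MR, and 2719.6 and 2251 in NC. PRDX3, the mitochondrial form, read 4047 and 4101 in MRV, 4289 and 4070.2 in MR, and 4404 and 4079.9 in NC. PRDX4, of the endoplasmic reticulum, read 1517 and 1567 in MRV, 1524 and 1712.5 in MR, and 1901 and 1359 in NC, and NC1 and NC2 were its highest and lowest arrays. All of PRDX2, PRDX3 and PRDX4 overlapped between MRV and MR, with differences from -0.067 to -0.0068.

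The glutathione peroxidases, which reduce peroxides at the cost of glutathione, did not share 1 direction. GPX3, the secreted plasma form, read 4758.5 and 5096 in MRV, 3712 and 3075 in MR, and 4135 and 3265 in NC. MRV lay above the other 4 arrays (log2 difference 0.54 with an SE of 0.16, limma adjusted p = 0.601), and MR and NC overlapped. GPX3 differed by 0.88 with the actin ratio added as covariate. GPX4, which reduces lipid hydroperoxides in membranes and protects cells from ferroptosis, read 3145 and 3173 in MRV, 2896.5 and 3261 in MR, and 2502.5 and 2536 in NC. Both groups with the lesion lay above NC, by 0.32 for MRV and 0.29 for MR, although the mean over its probe sets gave 0.16 and 0.044, where the dimmer probe set lay below the filter. GPX1, the abundant cytosolic form, read 915 and 1199 in MRV, 1243 and 1424 in MR, and 1251 and 984 in NC, with MRV below MR without overlap (log2 difference -0.34) and NC overlapping both, although the difference of MRV from MR was -0.045 with the actin ratio added as covariate. GPX2 and GPX7 read between 65.2 and 129.1, near the filter, and differed between MRV and MR by -0.11 and 0.17.

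Without a covariate, superoxide dismutases and catalase had small differences in every comparison. SOD1, the cytosolic copper-zinc enzyme, read 2518 and 2806 in MRV, 3012 and 2825 in MR, and 2813.5 and 2669.9 in NC, and MRV lay below MR without overlap (log2 difference -0.13). SOD2, the mitochondrial manganese enzyme, read 3624 and 3594 in MRV, 3680.2 and 3503 in MR, and 3607 and 3857.5 in NC. SOD3, the extracellular enzyme, read 233 and 265 in MRV, 279 and 215 in MR, and 274 and 240.0 in NC. CAT, catalase, read 2661 and 2050.0 in MRV, 2396 and 2153 in MR, and 2719 and 2264 in NC. In SOD2, SOD3 and CAT all groups overlapped, and their differences over the 3 comparisons lay between -0.13 and 0.04. With the actin ratio added as covariate, MRV minus MR became 0.035 for SOD1 and 0.37 for SOD3. It was -0.012 for SOD2 and 0.016 for CAT.

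Glutathione synthesis and recycling genes were lower in MRV than in MR in all 3 cases, without overlap, against 28.7 percent of all genes lower without overlap. GCLC, the catalytic subunit of glutamate-cysteine ligase, read 164 and 121 in MRV, 187 and 173 in MR, and 152.5 and 151 in NC. Its 2 other tested probe sets differed by -0.18 and -0.0056 between MRV and MR, against -0.33. GCLM, the modifier subunit, read 58.5 and 56.9 in MRV, 80.3 and 66.2 in MR, and 69.9 and 60.9 in NC, and GSR, glutathione reductase, read 280.5 and 267 in MRV, 307 and 298.5 in MR, and 397 and 239.8 in NC. GCLM differed by -0.27 and GSR by -0.14, while NC1 and NC2 were the highest and lowest arrays of GSR. With the actin ratio added as covariate these became -0.11 for GCLM and 0.17 for GSR, while GCLC went from -0.33 to -0.50.

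The glutathione transferases, which conjugate glutathione to reactive compounds, were higher in MRV than in MR for 5 of 5 tested genes, with a median of 0.24. Over all genes tested, 2292 of 5408 were higher. For 3 of the 5 there was no overlap, against 15 percent of all genes higher without overlap. GSTZ1, which also acts in tyrosine breakdown, read 569.6 and 528 in MRV, 429 and 496 in MR, and 590.1 and 656 in NC. The log2 difference of GSTZ1 was -0.42 for MR minus NC and 0.24 for MRV minus MR, although a dimmer probe set gave 0.14 and 0.064, and MRV minus MR was 0.017 with the actin ratio added as covariate. GSTA4, which clears products of lipid peroxidation, read 244 and 249.9 in MRV, 179.5 and 209.7 in MR, and 248 and 126 in NC. GSTO1, an omega class transferase gene, read 887 and 841 in MRV, 1003 and 523 in MR, and 744.5 and 432 in NC, with MRV above NC (log2 difference 0.59 with an SE of 0.36, limma adjusted p = 0.904) and a wide gap between the arrays in MR and in NC. Without NC2 the difference of GSTO1 between MRV and NC was 0.21, and with the actin ratio added as covariate it was 1.03. GSTK1 differed by 0.08 between MRV and MR and GSTA1 by 0.14. GSTK1 read 967 and 1013 in MRV and 858 and 1020 in MR, and its difference was 0.0010 with the actin ratio added as covariate. In GSTO1 the array MR1 lay above both MRV arrays, and in GSTK1 MR2 did. The sign of MRV minus MR in each of these genes therefore rests on the other MR array. The GSTA genes are close copies of one another, and the GSTA1 probe set may read more than 1 of them.

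AKR1CL1, an aldo-keto reductase gene, had the widest range among the reductases. It read 124 and 93.5 in MRV, 55.3 and 34.5 in MR, and 134 and 102 in NC. Both MR arrays lay below the other 4, and MRV and NC overlapped. The mean was 109 ± 21.8 in MRV, 44.9 ± 14.7 in MR and 118 ± 23.1 in NC (SD, n = 2 each). AKR1CL1 in MRV was 2.07-fold that in MR (log2 difference 1.05 with an SE of 0.23, limma adjusted p = 0.5), and AKR1CL1 in MR was 0.451-fold that in NC (log2 difference -1.15 with an SE of 0.23, limma adjusted p = 0.999955), on the log2(intensity + 16) scale. The other tested probe sets gave 1.18 and 0.33 for MRV minus MR and -1.25 and -0.24 for MR minus NC, so all 3 had the same sign. The MR values of the gene lay below the intensity used as filter, and the size of its differences moved with the pseudocount, from -1.40 with a pseudocount of 1 to -0.74 with 64 for MR minus NC.

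Haem oxygenases break haem down to biliverdin, iron and carbon monoxide. HMOX2, the constitutive form, read 676.5 and 723 in MRV, 579 and 562 in MR, and 706 and 698 in NC. MR lay below the other 4 arrays, and MR minus NC was -0.29 and MRV minus MR 0.29 on the log2 scale. HMOX1, the form induced by stress, read 174 and 209 in MRV, 138 and 163 in MR, and 137 and 160.3 in NC, with MRV above the other 4 arrays by 0.32 relative to MR. NQO1, a quinone reductase and a known target of the transcription factor NRF2, read 596 and 603 in MRV, 602.5 and 669.8 in MR, and 483 and 461 in NC. Both groups with the lesion lay above NC in NQO1, by 0.33 for MRV and 0.42 for MR.

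NADPH oxidase was represented by 2 tested subunits. CYBA, the membrane subunit shared by several NADPH oxidases, read 156 and 192 in MRV, 178.5 and 169 in MR, and 239 and 126.5 in NC, and NC1 and NC2 were its highest and lowest arrays. With the actin ratio added as covariate, CYBA went from -0.0042 to 0.59 for MRV minus MR. It went from -0.013 to 0.34 for MRV minus NC and from -0.0084 to -0.25 for MR minus NC. NCF1, the cytosolic organizer subunit of the phagocyte oxidase, read 193 and 206 in MRV, 183 and 156 in MR, and 175 and 186 in NC. MRV lay above the other 4 arrays in NCF1, by 0.22 relative to MR, and a dimmer NCF1 probe set below the filter gave 0.21. NCF4, another cytosolic subunit, read 24.0 and 22.6 in MRV, 21.4 and 21.6 in MR, and 23.0 and 21.3 in NC, below the filter. These subunits are abundant in leukocytes. Of 10 leukocyte markers, 7 had a probe set and 3 were tested, with a summed intensity of the 7 of 480.3 to 727 in MRV, 483 to 714.5 in MR and 526 to 694 in NC. PTPRC, which marks all leukocytes, read 19.0 and 17.8 in MRV, 17.8 and 16.5 in MR, and 18.3 and 16 in NC, below the filter on all arrays. The 3 neutrophil markers with a probe set summed to between 55.9 and 64.9 on every array.

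Among the genes of the cytochrome b5 family, CYB5R1, a reductase of that family, read 567 and 668 in MRV, 938 and 837.5 in MR, and 899 and 906 in NC. MRV lay below the other 4 arrays, and MR and NC overlapped (log2 difference -0.52 with an SE of 0.13, limma adjusted p = 0.529). The difference of CYB5R1 was -0.31 with the actin ratio added as covariate. OXNAD1, named for its oxidoreductase domain, read 304 and 286.5 in MRV, 335 and 367 in MR, and 460.4 and 471.5 in NC. The 3 groups of OXNAD1 did not overlap, in the same order as for MSRB1, and MRV was at 0.645-fold the NC level (log2 difference -0.63 with an SE of 0.11, limma adjusted p = 0.709). CYB5A, cytochrome b5 itself, read 1832 and 2000.3 in MRV, 2029 and 1901 in MR, and 1935 and 2044 in NC and overlapped between groups. CYB561 encodes a cytochrome of another family, caught by its symbol, and differed by -0.059 between MRV and MR.

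Across the 3 groups, 16 of 60 redox genes (26.7 percent) had both MRV arrays below the other 4 arrays, against 13.6 percent of all genes tested. They were SELENOW, SELENOH, SELENOM, SELENOS, MSRA, MSRB1, MSRB3, GLRX, GLRX2, GLRX5, TXNRD1, TXNDC15, TXNDC17, GCLM, CYB5R1 and OXNAD1. In SELENOH, MSRA, TXNDC15 and TXNRD1 another tested probe set overlapped between MRV and both other groups. The opposite, both MRV arrays above the other 4, held for GPX3, PRDX1, HMOX1, NCF1 and GSTA1, or 8.33 percent, against 5.95 percent. MR lay below the other 4 arrays for 6 genes (10 percent, against 4.36 percent) and above them for 8 (13.3 percent, against 9.74 percent). Without NC2 the first count was 23 (38.3 percent, against 22.9 percent of all genes). Without NC1 or without MR2 it was 16 (26.7 percent, against 16.3 and 16.2 percent), and without MR1 it was 17 (28.3 percent, against 17 percent). Without MRV1 or without MRV2 it was 24 (40 percent, against 26.4 percent), since overlap is rarer with an array fewer. With quantile normalization it was 14 (23.3 percent, against 11.3 percent). These shares were chosen after the values had been seen and carry no test. Summed smooth muscle markers (3 of 4 with a probe set) were 3209.9 to 3608 in MRV, 3766 to 4168 in MR and 3916 to 4983 in NC, and summed adipocyte markers (5 of 7) were 1125 to 2103 in MRV, 1875 to 2392 in MR and 2446 to 3397 in NC. Of the smooth muscle markers, ACTA2, the brightest, differed by 0.017 between MRV and MR. CNN1 and TAGLN differed by -0.73 and -0.41. The adipocyte sum came mostly from FABP4, and of the 4 tested adipocyte markers 3 were higher in MRV than in MR (median of the 4 differences 0.079). Summed fibroblast markers (4 of 6) were 6499 to 8328 in MRV, 7238 to 7824 in MR and 7295 to 9242 in NC. Summed endothelial markers (5 of 5) were 2550 to 2932 in MRV, 2898 to 3181 in MR and 2831 to 2981 in NC. Of the 4 tested fibroblast markers 2 were lower in MRV than in MR, POSTN by -0.97, and 2 higher. All 4 tested endothelial markers were lower (median -0.18), against 57.6 percent of all genes. The part of any of these lists in the differences of MRV was not tested.

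**Figure D4:**
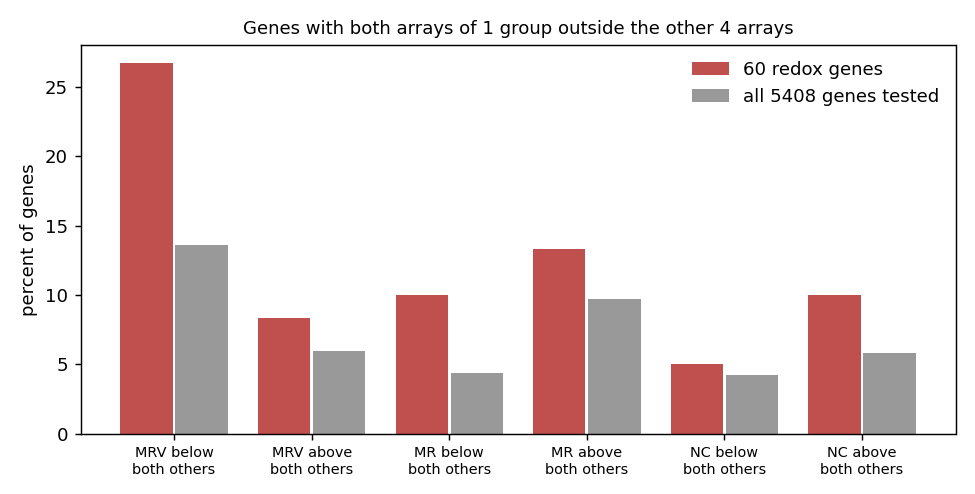
Percent of genes (vertical axis) whose 2 arrays of 1 group lie outside the other 4 arrays, for the 60 redox genes tested (red) and all 5408 genes tested (grey). The share with MRV below both other groups was 26.7 percent of redox genes and 13.6 percent of all genes, and a gene whose 3 groups are all separate counts in more than 1 pair of bars.

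Of 67 related genes that are no part of the set, 39 had a probe set with a single symbol and 29 were tested, and 0 passed in limma in any comparison (3 had an unadjusted p under 0.05 in each). The NRF2 regulators NFE2L2, KEAP1, BACH1, MAFG, MAFF and MAFK had none. Of the 29, 19 were lower in MRV than in MR, 15 lower in MR than in NC and 17 lower in MRV than in NC. Over all genes tested, 57.6, 47.4 and 55.8 percent were lower in the same order. An unadjusted limma p under 0.05 was held by 7.88, 4.49 and 5.62 percent of all genes. TKT, transketolase of the pentose phosphate pathway, which feeds NADPH production, read 476 and 409 in MRV, 277 and 276 in MR, and 474 and 379.9 in NC, with MR below the other 4 arrays. ALDH2, which clears aldehydes in mitochondria, read 149.8 and 239.8 in MRV, 409 and 329.5 in MR, and 169.7 and 211 in NC, with MR above the other 4. GLUL, glutamine synthetase, read 699 and 873 in MRV, 860.5 and 1194 in MR, and 1507 and 1643 in NC, with NC above the other groups (log2 difference -0.63 for MR minus NC). EPHX1, an epoxide hydrolase of the endoplasmic reticulum, read 500.2 and 492 in MRV, 714 and 553 in MR, and 1027.5 and 672 in NC, with MRV below the other 4 (log2 difference -0.73 for MRV minus NC). TKT, ALDH2, GLUL and EPHX1 were the related genes apart in at least 1 comparison. RAC1, the small GTPase that activates NADPH oxidase, read 636 and 679.6 in MRV, 697 and 723 in MR, and 747 and 679 in NC, and SEPHS2, which makes the selenium donor for selenocysteine, read 397 and 419 in MRV, 407.5 and 401 in MR, and 421 and 411 in NC, where MRV lay just below MR in RAC1 (log2 difference -0.11) and overlapped it in SEPHS2.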

How the data were processed

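RNA from 6 left atria was hybridised to a porcine Affymetrix array, 1 array per animal. The authors deposited 1 linear intensity per probe set and array, already normalized between arrays. MAS5 and RMA are named in the submitters' processing notes, without a statement of which made these values. Groups and replicate numbers came from the sample titles. The table held 24123 probe sets, and 124 controls were left out. By the array annotation, 10069 probe sets carried 1 symbol, 198 carried several and 13732 carried none. Log2(intensity + 16) was fitted in R 4.3.3 with limma 3.58.1 (lmFit, then eBayes) on the 14400 probe sets with a mean at or above the 40th percentile, with all 6 arrays and group means as terms (3 residual and 2.78 prior degrees of freedom), and Benjamini-Hochberg adjustment per comparison. The threshold was an adjusted p of 0.05. On simulated data with 200 changed probe sets among 14400, the fit recovered 53.1% of log2 changes of 1 and 87.4% of changes of 2 for MR minus NC, with 7.3 false calls among 147.8 calls per draw. The 6 animals are separate, so the spread within a group holds animal and technical variation, and the number of arrays limits the precision.

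The genes and lists were chosen with earlier results of these data known. Values per array are given for up to 8 genes per comparison, by smallest p among those apart, and for a list of genes given wherever measured; other genes named beside them were picked after their values were seen. The 6 lists of related genes and 8 of cell type markers were described by counts, without a set test. Alternatives were other pseudocounts, filters, a further normalization, the mean of all probe sets of a gene, fits on 2 groups, a replicate block, an actin covariate and leaving out each array. No genome coordinates or sequences were used.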

Additional observations from a re-analysis of the deposited data

How the results depend on the processing

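Over 15 alternatives, the number of redox genes past the threshold in limma stayed at 0 in all 3 comparisons. Genes that are apart cannot change sign when an array is left out. Of the differences of genes given in any case, 909 values under an alternative moved by less than the spread between replicates and 98 by more, and CYBA in MR minus NC had -0.43 without NC2 and 0.41 without NC1. Part of the 909 could not move, so the count overstates stability. Other filters, fits on 2 groups and the replicate block leave a difference as it is. So does the mean of all probe sets for a gene with 1 probe set. The number of genes apart in MR minus NC, 2 as reported, was 1 with a filter at the 60th percentile, which leaves out AKR1CL1, and 1 with the actin ratio added as covariate, where MSRB1 had -0.48. Leaving out single arrays gave 2 to 7 genes apart in MR minus NC, 6 to 8 in MRV minus MR and 6 to 9 in MRV minus NC, where an array fewer makes overlap rarer. The median difference then ranged from -0.069 to 0.045, from -0.080 to -0.057 and from -0.20 to -0.018 in the same order. With the replicate number as a block (replicate block), 0 genes passed the threshold. The block is balanced over the groups, so it could not change the differences or the 2, 7 and 6 genes apart. The replicate numbers do not mark shared animals, and the differences between arrays 1 and 2 correlated at 0.019 for MRV with MR, 0.20 for MRV with NC and 0.34 for MR with NC across probe sets. The leave-one-out and quantile counts of genes with MRV below the other 4 arrays were chosen after seeing the data. With 2 arrays a group, the lone array of a reduced group was assumed to vary like the others. Dim genes such as AKR1CL1, GCLM and GPX2 are limited by signal over background.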
